A study of Mus musculus with 6 samples.

Results

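Satellite repeats are DNA repeated head to tail, and 2963 of the 773731 rows (0.383%) in the authors' deposited table of repeat transcripts belonged to them. Members were all rows whose class was satellite, with no use of their values. Each row is 1 repeat locus read in 1 direction, and the 2963 rows covered 2810 loci under 7 satellite names. RNA came from ID8, an immortalized line of C57BL/6 mouse ovarian surface epithelium, grown asynchronously and left untreated. Trp53_KO, with the genotype Trp53-/-, and Trp53_WT, with Trp53+/+, had 3 libraries each, made from total RNA by a protocol that keeps the strand. The labels do not say which part of Trp53 was altered, how many clones were used or whether replicates were separate cultures, so every p-value reflects how these 6 libraries vary, a variation that could be technical.

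In the mouse, major satellite (GSAT_MM) fills the pericentromeric heterochromatin, and minor satellite lies under the centromere itself. Their transcription is known to be restrained by H3K9 methylation, DNA methylation and, in mouse cells, p53. Other repeats carry the satellite label without being centromeric, among them MMSAT4, IMPB_01 and ZP3AR, whose copies are scattered along the chromosome arms.

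Trp53 was at 29.6, 25.5 and 25.3 CPM (gene counts scaled to library size) in Trp53_KO and at 110, 97.3 and 105 CPM in Trp53_WT. Every Trp53_KO library lay below every Trp53_WT library, with a log2 fold change of -1.95 ± 0.09 (SE; edgeR, Benjamini-Hochberg adjusted p = 2.74e-07), and the transcript was still detected. Total gene counts ranged from 16597529 to 19574772 in Trp53_KO and from 15319956 to 19954170 in Trp53_WT. Trp53_WT replicate 1 stood apart, with a chi-square per degree of freedom of 27.5 and 26.9 against the other Trp53_WT libraries, which gave 2.01 between themselves. The epithelial genes Krt8, Krt18, Krt19, Msln and Wt1 were each at 187 CPM or more in all 6 libraries, while Epcam had no count in any. Cdh1 averaged 0.770 CPM in Trp53_KO and 0.686 CPM in Trp53_WT, and Krt7 6.90 CPM in Trp53_KO and 3.93 CPM in Trp53_WT. Cdh2 averaged 318 CPM in Trp53_KO and 263 CPM in Trp53_WT. Of 12 listed epithelial markers, 11 were tested, with 5 higher and 4 lower in Trp53_KO (edgeR, Benjamini-Hochberg): Bnc1 averaged 0.0726 CPM in Trp53_KO and 38.9 CPM in Trp53_WT, and Lrrn4 averaged 65.5 CPM in Trp53_KO and 0.235 CPM in Trp53_WT. Of the immune markers, Cd68 averaged 3.98 CPM in Trp53_KO and 4.86 CPM in Trp53_WT, while Ptprc, Cd3e, Adgre1 and Lyz2 reached at most 0.297 CPM in any library. Of the fibroblast markers, Dcn averaged 235 CPM in Trp53_KO and 102 CPM in Trp53_WT, Pdgfra and Col15a1 were also called higher, and Lum had no count. Of the endothelial markers, Pecam1 averaged 1.95 CPM in Trp53_KO and 0.153 CPM in Trp53_WT, while Cdh5 and Kdr had no count. The part of these markers in the results below was not tested, and in bulk RNA fewer cells of a type and less RNA per cell cannot be told apart.

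The MMSAT4 rows that carried most of the calls below lay in coding exons of zinc finger genes, and the sequence of some of them is shown first. Of 904 MMSAT4 loci, 589 (65.2%) touched a coding exon of the GENCODE M21 annotation, against 7 of 1326 IMPB_01 loci and 3 of 559 ZP3AR loci. Zinc finger genes of this kind encode proteins with a row of DNA-binding fingers joined by a short conserved linker. Many also carry a KRAB domain, through which they recruit the corepressor Trim28. The loci below are called ones inside coding exons, each from a different gene and up to 300 bases from its 5′ end, printed to show the unit they share. They are written on the strand of the transcript (GRCm38, the assembly of mm10, from GENCODE M21 transcripts). Capitals mark each copy of the word CANACNGGNGANAA, in which N stands for any base and which has the form of the linker's coding sequence.
Zfp334, chr2:165381065-165381364, minus strand: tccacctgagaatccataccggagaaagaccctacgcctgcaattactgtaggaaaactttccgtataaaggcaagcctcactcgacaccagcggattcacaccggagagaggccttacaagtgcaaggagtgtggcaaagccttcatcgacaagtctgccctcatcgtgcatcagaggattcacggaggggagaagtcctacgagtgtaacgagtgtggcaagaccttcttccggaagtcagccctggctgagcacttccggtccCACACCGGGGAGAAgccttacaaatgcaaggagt
RP23-11F9.3, chr2:150191945-150192162, plus strand: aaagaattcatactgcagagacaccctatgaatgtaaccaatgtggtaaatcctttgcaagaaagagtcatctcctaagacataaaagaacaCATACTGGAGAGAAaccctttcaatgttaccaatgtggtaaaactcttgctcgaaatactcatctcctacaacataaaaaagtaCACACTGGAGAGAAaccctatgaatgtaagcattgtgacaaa
RP23-91K11.4, chr2:150268260-150268477, plus strand: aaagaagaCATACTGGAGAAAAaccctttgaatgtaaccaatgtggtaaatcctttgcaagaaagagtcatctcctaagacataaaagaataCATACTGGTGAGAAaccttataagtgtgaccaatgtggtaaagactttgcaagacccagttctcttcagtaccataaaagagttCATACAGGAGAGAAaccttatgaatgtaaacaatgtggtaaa
Zfp111, chr7:24199216-24199410, minus strand: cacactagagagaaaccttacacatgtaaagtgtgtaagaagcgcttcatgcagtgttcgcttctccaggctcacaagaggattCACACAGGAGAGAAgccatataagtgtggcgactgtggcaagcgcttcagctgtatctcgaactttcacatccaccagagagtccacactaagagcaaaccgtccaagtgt
Zfp30, chr7:29792609-29792828, plus strand: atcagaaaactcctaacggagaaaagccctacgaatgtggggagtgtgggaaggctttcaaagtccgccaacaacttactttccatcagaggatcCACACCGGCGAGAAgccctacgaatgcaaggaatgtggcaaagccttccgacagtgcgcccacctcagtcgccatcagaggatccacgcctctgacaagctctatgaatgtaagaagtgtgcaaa

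The first 4 loci were higher and the Zfp30 locus was lower in Trp53_KO. The word was picked from these loci as their commonest run of 14 bases with 1 base in each codon left open. Across 454 MMSAT4 loci inside coding exons, 383 (84.4%) held the word on the transcript's strand. Of 813 gaps between neighbouring copies, 665 were 84 bases and 803 were a multiple of 84. Bases 84 apart were identical in 72.6% of positions over the 226 loci long enough to score, against a median of 26.0% over all distances up to 120 bases. In windows of 300 bases, the word was present in 189 of 198 MMSAT4 loci (95.5%) and in 24 of 32851 RefSeq promoters of GRCm38.p6 (0.0731%), both strands searched. Since the word was picked from these MMSAT4 loci, the contrast describes it and is not a test. Other zinc finger exons were not compared.

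The repeated units also limit what a single row can say. Words of 50 bases from MMSAT4 loci were looked up in the transcripts of other genes, and 342 of 663 loci had none that recurred, while 138 had more than 50% of theirs elsewhere. The Zfp334 and Zfp30 loci above shared none. The RP23-11F9.3 locus shared 25.4% and the RP23-91K11.4 locus 59.2% of their words with other genes. Among called loci not printed, the second of RP23-11F9.3 shared 96.5%, and others of RP23-91K11.4 shared 15.1% and 27.5%. The authors' counting could divide reads between such copies. Values of the RP23 genes are therefore uncertain in this respect.

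By the authors' test, satellite rows were called more often as higher than as lower in Trp53_KO. In the authors' deposited table, a total of 24 satellite rows (0.810%) were higher and 8 (0.270%) were lower at an FDR under 0.05, against 0.388% higher and 0.284% lower over all repeat rows. The median log2 fold change was 0.00 over satellite rows and 0.00 over all repeat rows of the authors' deposited table, so the calls concerned a few loci in a set that was centred on no change. The table gives no value per library, so neither a spread nor a read depth can be given for a row. The test of each row is the authors' own.

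The calls were unevenly spread over the names. MMSAT4 had 15 higher and 4 lower of 971 rows (1.54% and 0.412%) in the authors' deposited table. IMPB_01 had 6 higher and 3 lower of 1382 rows (0.434% and 0.217%), shares near those of all repeats. ZP3AR had 3 higher and 1 lower of 584 rows (0.514% and 0.171%). The remaining names, GSAT_MM with 13 rows, SYNREP_MM with 7, SUBTEL_sa with 5 and MurSAT1 with 1, had no row called in either direction in the authors' deposited table.

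By place in the genome, the higher satellite calls were most frequent in exons. The authors' deposited table had 9 higher and 1 lower among 416 exonic satellite rows (2.16% and 0.240%), against 1.48% and 0.666% of all exonic repeat rows. In 3' untranslated regions it had 6 higher and 2 lower among 349 satellite rows (1.72% and 0.573%), against 1.05% and 0.872% of all repeat rows there. Introns held 1691 satellite rows in the authors' deposited table, of which 7 were higher and 3 lower (0.414% and 0.177%), against 0.238% and 0.203% of all intronic rows. Of 372 intergenic satellite rows, by the authors' deposited table, only 1 was higher and 2 were lower (0.269% and 0.538%), whereas 0.850% of all intergenic repeat rows were higher and 0.401% were lower. The 5' untranslated regions held 135 satellite rows with 1 higher (0.741%) and none lower in the authors' deposited table, against 0.567% and 0.579% of all repeat rows there. Name and place went together: 73.8% of MMSAT4 rows lay in exons or untranslated regions, while 82.5% of IMPB_01 and 78.1% of ZP3AR rows lay in introns. These places are the authors' annotation. In GENCODE M21, 163 of 215 MMSAT4 loci placed in 3' untranslated regions and 52 of 70 in 5' ones touched a coding exon.

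**Figure D1:**
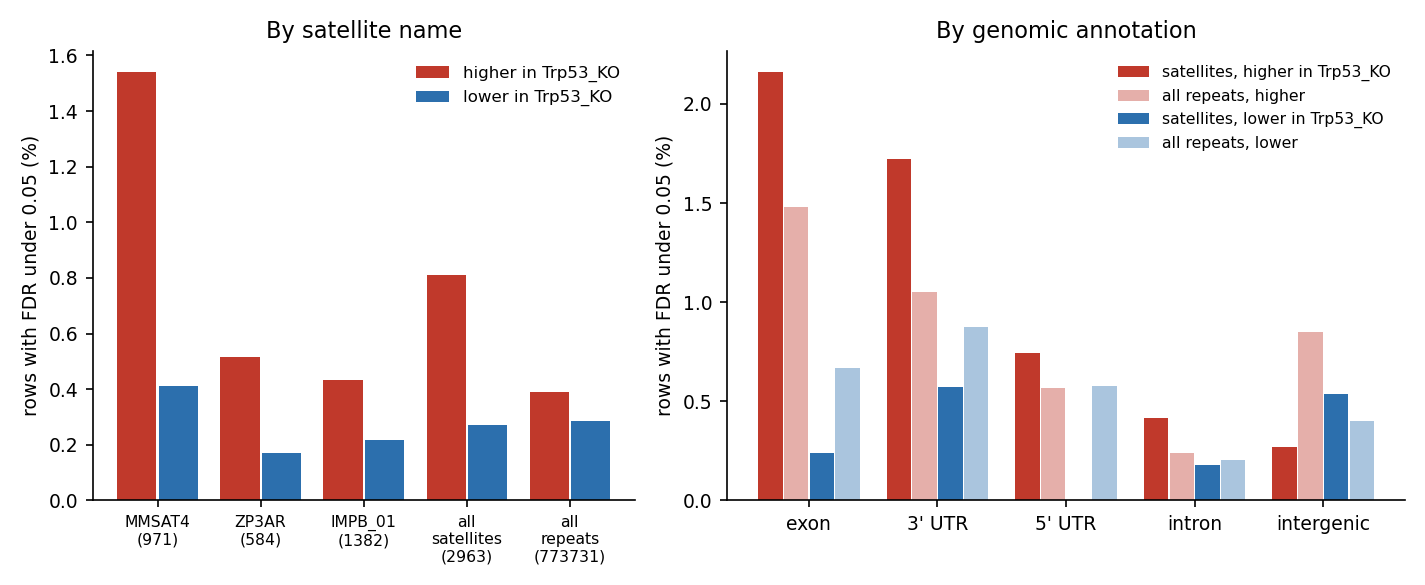
Share of rows with the authors' FDR under 0.05, in percent, higher (red) and lower (blue) in Trp53_KO, by satellite name with the number of rows (left) and by genomic annotation beside all repeats in paler bars (right). MMSAT4 reached 1.54% higher, and intergenic satellite rows had 0.269% higher against 0.850% of all intergenic repeats.

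Major satellite, the centromere-proximal repeat, gave no call. Its longest row, 38417 bases on chromosome 9 from 3000003 to 3038419, had log2 fold changes of -0.75 (FDR 0.639) and 0.17 (FDR 1) in its 2 read directions in the authors' deposited table. The row at chromosome 2, 98666545 to 98667332, had 0.27 (FDR 0.922) and 0.25 (FDR 0.956) in the authors' deposited table. The largest GSAT_MM folds, 2.50 on chromosome 14 (FDR 0.639) and 2.37 on chromosome 6 (FDR 0.535) in the authors' deposited table, did not pass either. Gene counts over these loci were low. Gm10800, annotated over the chromosome 2 row, had 5, 4 and 3 counts in Trp53_KO and 4, 4 and 2 counts in Trp53_WT. Gm26870, over the chromosome 9 row, had 2, 2 and 0 counts in Trp53_KO and 2, 6 and 4 counts in Trp53_WT. The groups overlapped for Gm10800. For Gm26870 the raw counts of the groups met at 2, while scaled to library size it was at 0.102, 0.121 and 0 CPM in Trp53_KO and at 0.135, 0.297 and 0.214 CPM in Trp53_WT, each Trp53_KO library below each Trp53_WT library. Neither gene had enough counts to be tested. How reads that match many places were handled is not given in the sources used here, and no difference in major satellite RNA was detected in these rows.

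**Figure D2:**
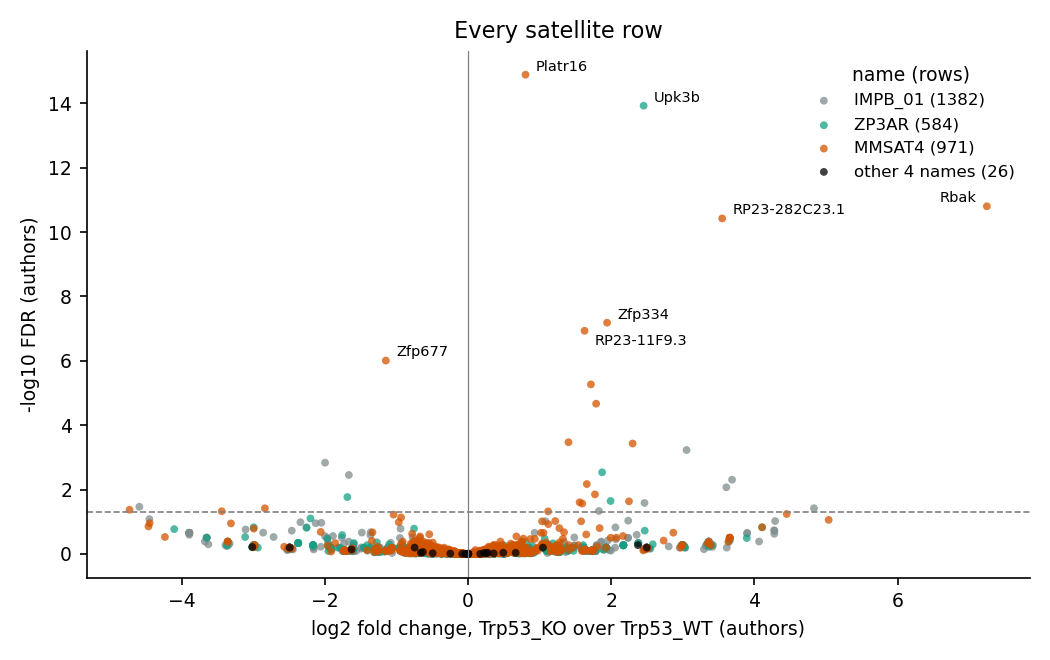
Authors' log2 fold change of Trp53_KO over Trp53_WT (x axis) and -log10 FDR (y axis) of all 2963 satellite rows, coloured by name, with the dashed line at an FDR of 0.05. The 24 higher rows reach further up than the 8 lower rows, and the 26 rows of the other 4 names all lie below the line.

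Most called MMSAT4 rows lay in zinc finger genes whose own counts moved the same way. Rows and genes share reads wherever the repeat is part of an exon, so the 2 values are not independent. The gene counts add what the authors' row table lacks, a value in each library.

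Rbak encodes a KRAB zinc finger protein that binds the retinoblastoma protein. It had 92, 66 and 57 counts in Trp53_KO and 0, 0 and 0 counts in Trp53_WT. The groups did not overlap, and Rbak was at least 69.8-fold higher in Trp53_KO against a floor of 3 counts over the Trp53_WT group (edgeR, Benjamini-Hochberg adjusted p = 2.47e-05). Its 619-base row on chromosome 5, 143173914 to 143174532, in a 5' untranslated region by the authors' deposited table, had a log2 fold change of 7.25 (FDR 1.58e-11). GENCODE M21 has that row inside a coding exon. Both other MMSAT4 rows of Rbak, at 5.04 (FDR 0.0878) and 4.45 (FDR 0.0576) in the authors' deposited table, had the same sign without passing.

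RP23-282C23.1, which GENCODE M21 names Zfp979, had 22.5, 26.4 and 16.01 CPM in Trp53_KO and 1.75, 2.08 and 2.95 CPM in Trp53_WT. All 3 Trp53_KO libraries were far above the highest Trp53_WT library, with a log2 fold change of 3.24 ± 0.23 (SE; edgeR, Benjamini-Hochberg adjusted p = 5.14e-06). Its row on chromosome 4, 147612629 to 147613652, stood at 3.55 (FDR 3.75e-11) in the authors' deposited table. That row is in a 3' untranslated region by the authors' annotation and touches a coding exon in GENCODE M21.

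Zfp334, a zinc finger gene, was at 15.3, 15.9 and 15.2 CPM in Trp53_KO and at 6.01, 6.13 and 5.90 CPM in Trp53_WT. The libraries within each group lay close together and the groups stood well apart, with a log2 fold change of 1.36 ± 0.10 (SE; edgeR, Benjamini-Hochberg adjusted p = 5.0e-06). Its exonic row of 387 bases, the printed sequence being the part nearest the gene's start, was higher by 1.94 (FDR 6.53e-08) in the authors' deposited table.

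The genes RP23-11F9.3 and RP23-91K11.4 (Gm14139 and Gm14124 in GENCODE M21), both on chromosome 2, held 5 of the called rows between them. RP23-91K11.4 was at 27.7, 31.8 and 24.9 CPM in Trp53_KO and at 8.10, 8.95 and 9.33 CPM in Trp53_WT. RP23-11F9.3 was at 13.5, 15.5 and 11.4 CPM in Trp53_KO and at 4.59, 3.86 and 4.56 CPM in Trp53_WT. In both genes the lowest Trp53_KO library exceeded the highest Trp53_WT library, with log2 fold changes of 1.67 ± 0.11 and 1.64 ± 0.15 (SE; edgeR, Benjamini-Hochberg adjusted p = 3.87e-06 and 2.44e-05). In the authors' deposited table the 4 rows of RP23-91K11.4 had log2 fold changes between 1.12 and 1.79, and the 2 rows of RP23-11F9.3 had 1.63 and 1.56. One row of RP23-91K11.4 did not pass (FDR 0.119).

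Platr16, a long noncoding RNA gene, held the satellite row with the lowest FDR and, among the 24 higher rows, the smallest fold change. It was at 24.1, 29.9 and 22.3 CPM in Trp53_KO and at 15.1, 15.2 and 14.3 CPM in Trp53_WT. The groups did not overlap, with a log2 fold change of 0.77 ± 0.12 (SE; edgeR, Benjamini-Hochberg adjusted p = 0.000762). Its row of 1272 bases at chromosome 4, 145449609 to 145450880, had 0.80 (FDR 1.28e-15) in the authors' deposited table, while none of the 50 other repeat rows read in that direction in the gene was called, their median being 0.74. GENCODE M21 ends Platr16 at 145449756, so most of the row lies past that end, and it places Gm13230 over the same row.

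The remaining higher MMSAT4 rows lay in Zfp111, RP23-330D3.9, Rex2 and the genes on chromosomes 2 and 4 that GENCODE M21 names Gm14409 and Zfp985, which had log2 fold changes between 0.82 and 2.42 and no overlap of the groups. Zfp111, a zinc finger gene on chromosome 7, was at 13.7, 13.6 and 10.6 CPM in Trp53_KO and at 5.20, 4.995 and 4.02 CPM in Trp53_WT. That is a log2 fold change of 1.41 ± 0.15 (SE; edgeR, Benjamini-Hochberg adjusted p = 7.42e-05), and its 3 MMSAT4 rows in the authors' deposited table had 1.40, 1.59 and 2.16, the last with an FDR of 0.279. Rex2 had few reads, 51 counts in Trp53_KO and 9 counts in Trp53_WT over the groups, and shared 91.1% of its row's words with other genes. Zfp985, listed in the files under a clone name, lost its call without Trp53_KO replicates 1 or 2 or Trp53_WT replicates 2 or 3, with edgeR Benjamini-Hochberg adjusted p between 0.0543 and 0.0774, against 0.0202 with all libraries.

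**Figure D3:**
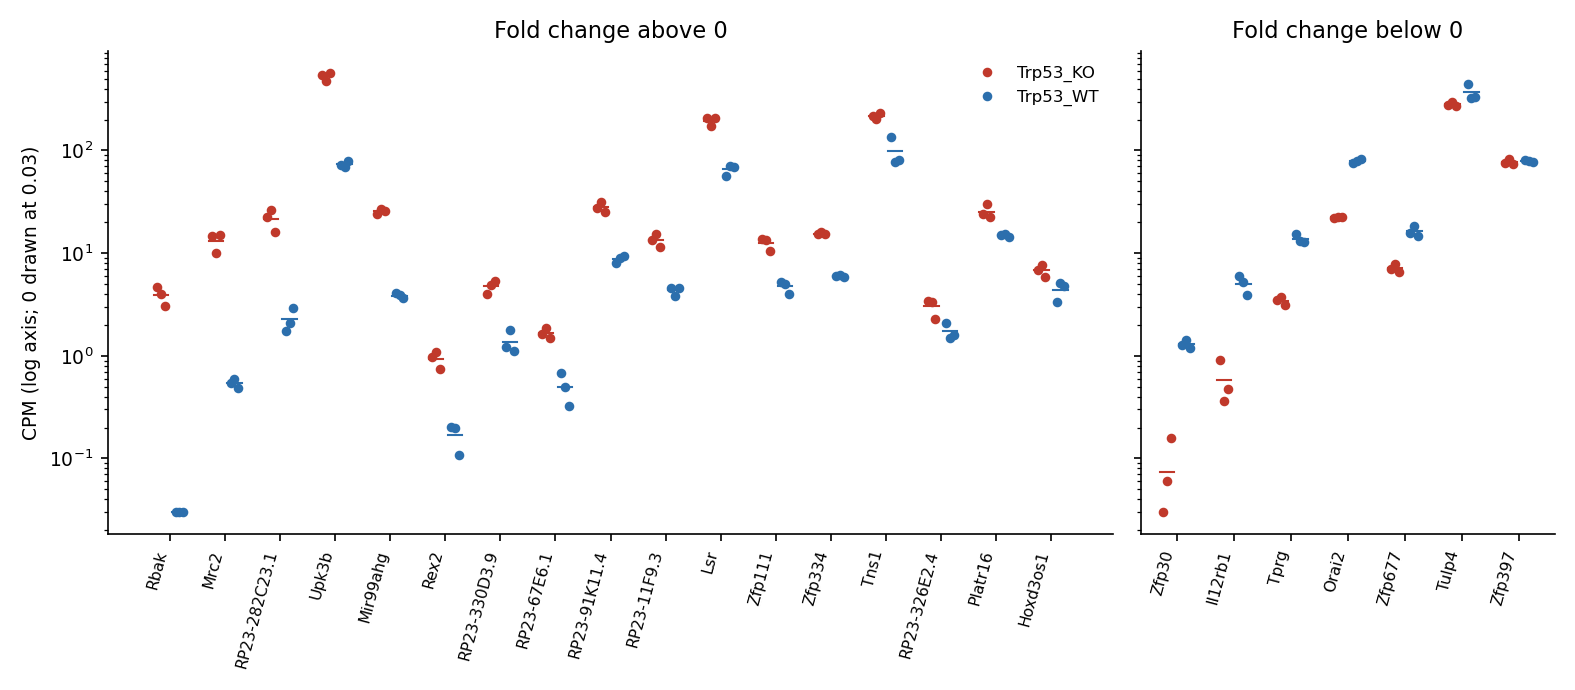
TMM-scaled CPM on a log axis of the tested genes that hold a called satellite row, and of Zfp397 beside an intergenic one, in each library of Trp53_KO (red, left of each pair) and Trp53_WT (blue). Horizontal bars are means, and the groups overlap for Zfp397 alone.

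Fewer MMSAT4 rows were lower. Zfp677, a zinc finger gene on chromosome 17, was at 6.99, 7.79 and 6.60 CPM in Trp53_KO and at 15.9, 18.5 and 14.5 CPM in Trp53_WT. Every Trp53_KO library lay below every Trp53_WT library, with a log2 fold change of -1.20 ± 0.12 (SE; edgeR, Benjamini-Hochberg adjusted p = 6.63e-05). Its row of 1891 bases had -1.15 (FDR 9.81e-07) in the authors' deposited table, the lowest FDR among the 8 lower rows. That row is in a 3' untranslated region by the authors' annotation and touches a coding exon in GENCODE M21. Zfp30, a zinc finger gene on chromosome 7, was close to absent in Trp53_KO, with 4 counts over the Trp53_KO group and 70 counts over the Trp53_WT group. Its gene log2 fold change was -4.04 ± 0.51 (SE; edgeR, Benjamini-Hochberg adjusted p = 0.000251), and lay between -3.44 without Trp53_KO replicate 1 and -5.24 without Trp53_KO replicate 3. The printed exonic row stood at -4.73 (FDR 0.0425) in the authors' deposited table. The other lower rows of this name were intergenic. The one on chromosome 18 lay 147 bases from Zfp397 and had -3.44 (FDR 0.0473) in the authors' deposited table, while Zfp397 itself, at 77.0 ± 4.5 CPM in Trp53_KO and 79.6 ± 2.0 CPM in Trp53_WT (SD, n = 3 each), did not pass (edgeR, Benjamini-Hochberg adjusted p = 0.656). The one on chromosome 12, 18028045 to 18028326, had -2.84 (FDR 0.0382) in the authors' deposited table and lies in Gm49329 in GENCODE M21.

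The genes with MMSAT4 as a group did not move one way. Among 308 tested genes that hold an MMSAT4 row, Trp53_KO had 27 (8.77%) higher and 32 (10.4%) lower, against 14.1% higher and 16.1% lower over all 13651 tested genes (edgeR, Benjamini-Hochberg adjusted p under 0.05). The count of lower genes was 20 without Trp53_KO replicate 3 and 21 without Trp53_WT replicate 2. Of those called, 12 of the 27 higher genes and 4 of the 32 lower genes changed more than 2-fold, and the median log2 fold changes were 0.77 among the higher and -0.58 among the lower. Over all tested genes 628 of 1930 higher and 630 of 2200 lower ones changed more than 2-fold, with medians of 0.56 and -0.61, and the difference in size was not tested. The 27 include Rbak, whose fold is a bound above the median. After Zfp30, the lowest fold changes among those called were of Zfp964, at 1.37 CPM in Trp53_KO and 4.17 CPM in Trp53_WT, and of Zfp677.

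Of the 27 higher MMSAT4 genes, 15 lay on chromosomes 2 and 4, a grouping chosen after the values were seen and not tested. Of the 71 MMSAT4 genes tested there, Trp53_KO had 15 higher and 1 lower (21.1% and 1.41%). Genes of all kinds also had more higher calls on these chromosomes: 24.1% of the 1606 tested genes placed there by a unique GENCODE M21 symbol were higher and 12% lower, against 13.9% and 18.2% of the 9878 placed elsewhere (edgeR, Benjamini-Hochberg). Of the rows, 12 of 179 in MMSAT4 genes on chromosomes 2 and 4 were higher with none lower in the authors' deposited table. On the other chromosomes, with 237 genes tested, Trp53_KO had 12 higher and 31 lower (5.06% and 13.1%), with 3 higher and 2 lower of 625 rows in the authors' deposited table. The 3 tested genes on the X chromosome, Zfp300, Zfp449 and Zfp182, had log2 fold changes of -0.98, -0.96 and -0.64 and all passed, on a chromosome where 45.5% of the 365 tested genes were lower and 12.6% higher. With each library left out in turn, the counts were 12 to 20 higher and 1 to 3 lower genes on chromosomes 2 and 4, against 7 to 19 higher and 19 to 34 lower elsewhere. Elsewhere the higher genes numbered 7 without Trp53_KO replicate 1, Trp53_KO replicate 2 or Trp53_WT replicate 2 and 19 without Trp53_WT replicate 1, and the lower genes 19 without Trp53_KO replicate 3 and 20 without Trp53_WT replicate 2. On chromosomes 2 and 4, 3 genes were lower without Trp53_KO replicate 2.

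**Figure D4:**
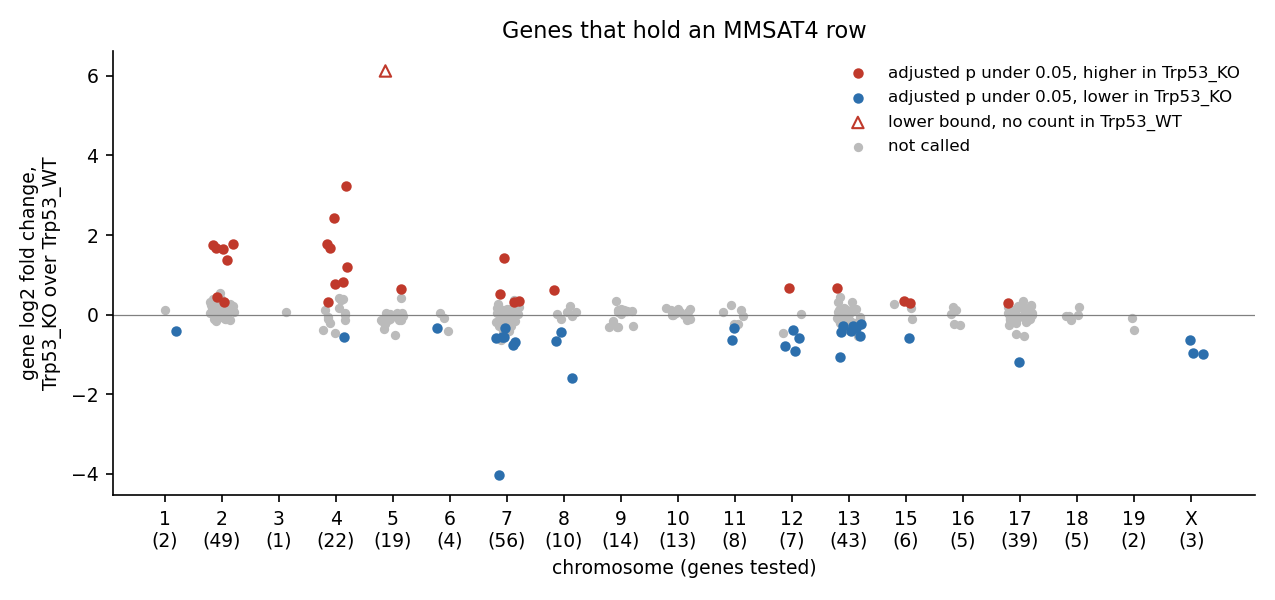
Log2 fold change of Trp53_KO over Trp53_WT (y axis) of the 308 tested genes that hold an MMSAT4 row, by chromosome with the number tested (x axis), red where higher and blue where lower at an adjusted p under 0.05. The triangle is the lower bound for Rbak on chromosome 5, and chromosomes 2 and 4 hold 15 of the 27 higher genes.

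ZP3AR rows were called in introns of genes that differed between the genotypes. Upk3b encodes uroplakin 3B, a membrane protein of mesothelium and urothelium, and was at 548, 473 and 572 CPM in Trp53_KO and at 73.0, 69.0 and 79.0 CPM in Trp53_WT. The groups stood far apart, with a log2 fold change of 2.85 ± 0.09 (SE; edgeR, Benjamini-Hochberg adjusted p = 2.75e-08). The intronic ZP3AR rows at 136041977 to 136042122 and 136041464 to 136041589 on chromosome 5 had 2.45 (FDR 1.18e-14) and 1.87 (FDR 0.00292) in the authors' deposited table. They did not stand out in that gene: of the 18 other repeat rows beside the first, 17 were higher, with a median of 2.76 in the authors' deposited table. Lsr, a lipoprotein receptor that also sits at tricellular junctions, averaged 195 ± 20 CPM in Trp53_KO and 65.3 ± 7.6 CPM in Trp53_WT (SD, n = 3 each), and its row had 1.99 (FDR 0.0227) in the authors' deposited table.

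The single lower ZP3AR row was read against its gene. Il12rb1, a subunit of the receptors for interleukins 12 and 23, was at 0.918, 0.362 and 0.479 CPM in Trp53_KO and at 5.94, 5.19 and 3.91 CPM in Trp53_WT. The groups did not overlap, with a log2 fold change of -3.04 ± 0.30 (SE; edgeR, Benjamini-Hochberg adjusted p = 4.24e-05). The row in its intron had -1.69 (FDR 0.0171) on the opposite strand and -4.11 (FDR 0.170) on the gene's own strand in the authors' deposited table. The counting setting for strand is not given in the sources used here, so reads from a gene and from an antisense transcript may not be separated.

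The called IMPB_01 rows inside tested genes had the sign of their gene, and 2 of them differed from it most in size. Mrc2, an endocytic receptor for collagen, was at 14.8, 10.02 and 15.0 CPM in Trp53_KO and at 0.540, 0.593 and 0.483 CPM in Trp53_WT. All Trp53_KO libraries lay far above all Trp53_WT libraries, with a log2 fold change of 4.61 ± 0.24 (SE; edgeR, Benjamini-Hochberg adjusted p = 6.33e-07), and the row in the 3' untranslated region had 3.69 (FDR 0.00495) in the authors' deposited table. A row on chromosome 6, 92879270 to 92879450, was higher by 3.61 (FDR 0.00853) and is assigned to RP24-193H8.3 in the authors' deposited table, a gene with 2 counts in all. GENCODE M21 places Adamts9, a secreted metalloprotease gene, over the same bases on the strand of the reads. Adamts9, looked up after the row's value was seen, was at 196, 179 and 198 CPM in Trp53_KO and at 30.9, 24.2 and 24.6 CPM in Trp53_WT, and the groups did not overlap.

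The first of these was the IMPB_01 row with the lowest FDR, on chromosome 2 from 74711487 to 74711723. It lies in Hoxd3os1, a long noncoding gene antisense to the Hoxd cluster, and is read on the opposite strand. That row had 3.05 (FDR 0.000593) in the authors' deposited table. Hoxd3os1 had a log2 fold change of 0.61 ± 0.18 (SE; edgeR, Benjamini-Hochberg adjusted p = 0.0283). Leaving out Trp53_KO replicate 1 or 2 ended that call, at adjusted p = 0.0804 and 0.104. On the strand of the reads GENCODE M21 has the homeobox genes Hoxd3, from 74711927, and Hoxd4, from 74711929. Looked up afterwards, Hoxd4 was at 19.7, 21.6 and 21.5 CPM in Trp53_KO and at 13.7, 13.3 and 11.9 CPM in Trp53_WT, with no overlap, whereas Hoxd3 was at 3.47, 3.32 and 3.78 CPM in Trp53_KO and at 2.63, 3.36 and 2.95 CPM in Trp53_WT, where the groups overlapped.

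The other lay in Tulp4, a tubby-like gene. Its IMPB_01 row of 58 bases had -4.60 (FDR 0.0342) in the authors' deposited table, whereas the 214 other repeat rows in the gene read in that direction had a median of -0.24 and none called. Tulp4 was at 277, 299 and 272 CPM in Trp53_KO and at 447, 326 and 332 CPM in Trp53_WT. The groups did not overlap, and the highest value was that of Trp53_WT replicate 1. The gene's log2 fold change was -0.38 ± 0.11 (SE; edgeR, Benjamini-Hochberg adjusted p = 0.0313), and its adjusted p was 0.1, 0.0547 and 0.106 without Trp53_KO replicates 1, 2 and 3. Without Trp53_WT replicate 1 the log2 fold change was -0.22.

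Among the other IMPB_01 rows, Orai2, a subunit of store-operated calcium channels, was at 22.03, 22.4 and 22.6 CPM in Trp53_KO and at 76.3, 78.5 and 81.8 CPM in Trp53_WT. The 2 groups were each tight and far apart, with a log2 fold change of -1.82 ± 0.07 (SE; edgeR, Benjamini-Hochberg adjusted p = 1.09e-07), and the row had -2.0 (FDR 0.00147) in the authors' deposited table. Tprg averaged 3.45 ± 0.30 CPM in Trp53_KO and 13.8 ± 1.5 CPM in Trp53_WT (SD, n = 3 each), with a row at -1.67 (FDR 0.00354) in the authors' deposited table. Rows in Tns1, the focal adhesion protein tensin 1, and in Mir99ahg, the host gene of a microRNA cluster, had 2.46 and 1.83 in the authors' deposited table, against gene log2 fold changes of 1.14 and 2.73. The only called one of 139 intergenic IMPB_01 rows, on chromosome 6 from 3328263 to 3328396, had 4.83 (FDR 0.0381) in the authors' deposited table. Within 10 kb it had no gene with both deposited counts and a unique GENCODE M21 symbol, and other genes were not searched.

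**Figure D5:**
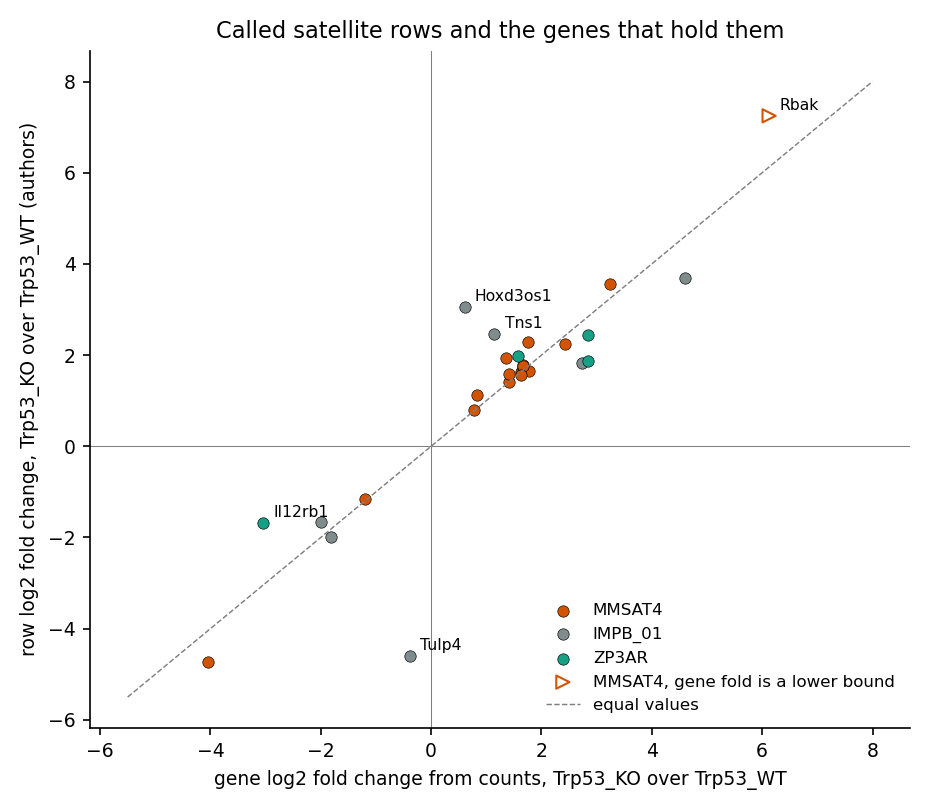
Authors' log2 fold change of each called satellite row (y axis) against the count-based log2 fold change of the gene that holds it (x axis), both Trp53_KO over Trp53_WT, with the dashed line marking equal values. All 28 points have the same sign on both axes, and Hoxd3os1, Tns1, Il12rb1 and Tulp4 differ by more than 1 between the values. The gene value of Rbak is drawn at its lower bound and is not compared.

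Satellite rows and genes that were both called had the same direction. Of the 23 higher rows inside genes, 22 had a tested gene, and that gene was called higher for each of the 22 rows. Some genes held several of these higher rows, RP23-91K11.4 holding 3, so the rows are not separate genes. The 6 lower rows inside genes all had a gene called lower (edgeR, Benjamini-Hochberg). Among other repeats of the authors' deposited table, 1434 of 1815 higher rows and 1395 of 1641 lower rows with a tested gene had that gene called the same way. The gene was called the opposite way for 52 higher and 11 lower rows, and was not called for 329 and 235. In exons and untranslated regions, the 68 satellite rows in genes called higher had a median of 0.78 with 16 called, the 106 rows in genes called lower had -0.47 with 3 called, and the 660 rows in genes not called had 0.03 with none called, by the authors' deposited table. Introns gave the same order, with medians of 0.64, -0.49 and 0.00 over 240, 372 and 970 rows in the authors' deposited table. Across rows, Spearman's rho between the value of the authors' deposited table and the gene's own was 0.55 over 834 exonic and untranslated rows and 0.30 over 1582 intronic rows. These are rows of the same libraries that share reads with their genes, not independent points. Of the satellite rows inside genes of known strand, 92.8% were read in the gene's direction.

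Genes that form or maintain heterochromatin, or are known to change satellite transcription, moved both ways. They were listed together and not split by the direction of their effect. In a list of 37 such genes, of which 34 were tested, Trp53_KO had 10 (29.4%) higher and 3 (8.82%) lower (edgeR, Benjamini-Hochberg), beside the shares of all tested genes given above. The higher count was 5 without Trp53_KO replicate 1, 4 without Trp53_KO replicate 3, 4 without Trp53_WT replicate 2 and 5 without Trp53_WT replicate 3. Suv39h1, the H3K9 methyltransferase of pericentromeric chromatin, was at 75.1, 79.3 and 71.3 CPM in Trp53_KO and at 96.3, 99.8 and 108 CPM in Trp53_WT. Its groups did not overlap, with a log2 fold change of -0.43 ± 0.07 (SE; edgeR, Benjamini-Hochberg adjusted p = 0.00185). Atrx, a chromatin remodeller that works with Daxx, fell by 0.26 on the log2 scale.

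The higher members included the DNA methyltransferases Dnmt3a, with 72.9 ± 3.1 CPM in Trp53_KO and 53.3 ± 5.1 CPM in Trp53_WT, and Dnmt3b, with 6.03 ± 0.49 CPM in Trp53_KO and 4.18 ± 0.30 CPM in Trp53_WT (SD, n = 3 each). Daxx, the histone H3.3 chaperone, and Cbx1, which encodes the heterochromatin protein HP1 beta, had log2 fold changes of 0.43 and 0.39. Cbx1 lost its call without Trp53_KO replicate 2 and Dnmt3b without Trp53_KO replicate 3 (edgeR, Benjamini-Hochberg adjusted p = 0.0562 and 0.0571). Trim28, the corepressor that KRAB zinc finger proteins recruit, averaged 487 ± 18 CPM in Trp53_KO and 413 ± 20 CPM in Trp53_WT (SD, n = 3 each), and its log2 fold change was 0.24 ± 0.06 (SE). Setdb1, the H3K9 methyltransferase that Trim28 brings in, averaged 109 ± 1.9 CPM in Trp53_KO and 109 ± 1.6 CPM in Trp53_WT and was not called.

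No satellite name was treated here as minor satellite, so the RNA of minor satellite was not assessed. Genes of the centromere, which forms on minor satellite, were mostly not called. In a list of 22, of which 20 were tested, Trp53_KO had 1 higher and 3 lower (5% and 15%; edgeR, Benjamini-Hochberg), against 14.1% and 16.1% of all tested genes. Cenpw, a histone-fold subunit of the inner kinetochore, averaged 27.1 ± 1.3 CPM in Trp53_KO and 21.1 ± 1.6 CPM in Trp53_WT (SD, n = 3 each), and its log2 fold change was 0.37. Among the lower ones, Cenpl had a log2 fold change of -0.61 and Hjurp, the chaperone that loads Cenpa, had -0.20. Cenpl was at -0.38 without Trp53_WT replicate 1. It lost its call without Trp53_KO replicate 2 or 3 (edgeR, Benjamini-Hochberg adjusted p = 0.0545 and 0.0625). Hjurp stayed between -0.18 and -0.20 with any library left out, but kept its call only without Trp53_WT replicate 1. Without any other library its adjusted p lay between 0.0525 and 0.0832 (edgeR, Benjamini-Hochberg). The count of lower calls changed with the library left out: 1 gene was called lower without Trp53_KO replicate 1, Trp53_KO replicate 2, Trp53_WT replicate 2 or Trp53_WT replicate 3, none without Trp53_KO replicate 3, and 6 without Trp53_WT replicate 1. Cenpa, the histone H3 variant of the centromere, averaged 113 ± 3.8 CPM in Trp53_KO and 114 ± 1.3 CPM in Trp53_WT, and Cenpb, which binds a box in minor satellite, averaged 142 ± 13 CPM in Trp53_KO and 164 ± 37 CPM in Trp53_WT (SD, n = 3 each). Neither was called.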

How the data were processed

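Stranded total RNA was made into libraries after DNase I treatment, per the labels' protocols. The submitters' processing notes name STAR, featureCounts, edgeR and mm10. Their versions, their settings and how reads with many matches were handled were not given in the sources used here. Whole-number counts for 41327 gene symbols were deposited by the authors, with a repeat table whose rows, 1 per locus and read direction, hold a log2 fold change and an FDR (an adjusted p-value). The base of the authors' log2 scale was checked on 795 rows (median ratio to the gene's value 1.03), and the suffixes fwd and rev were read as plus and minus strand.

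Counts were fitted in edgeR 4.0.16 (R 4.3.3): filterByExpr kept 13651 genes, with TMM scaling, a quasi-likelihood test on genotype, Benjamini-Hochberg adjustment over all tested genes and a threshold of 0.05. Standard errors are approximate, and genes varied between libraries with a biological coefficient of variation of 9.75%. Intervals and floors cover counting error only. CPM is TMM-scaled and not per length.

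Satellite rows were counted by the authors' FDR under 0.05, called here when they pass it. Named loci were the 6 rows with the lowest FDR in each direction, with the first of each name and annotation, their genes, and up to 6 genes of each list. The other called rows and genes, among them Atrx, Trim28, Setdb1, Cenpa, Cenpb and the MMSAT4 genes outside called rows, were added after their values were seen. Members, lists and rules were chosen with earlier results of these data known. Alternatives were RLE factors, no filter, DESeq2 1.42.0, a replicate block, each library left out, and other row thresholds. Gene positions came from GENCODE M21. Some results that rest on withheld items are not reported here.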

Additional observations from a re-analysis of the deposited data

How the results depend on the processing

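The rows allowed no library to be left out, since the authors' deposited table has 1 value per row. At an FDR under 0.01, 15 satellite rows stayed higher and 3 lower: MMSAT4 had 1 lower, IMPB_01 3 higher and ZP3AR 0 lower, exons had 0 lower, introns 4 higher and 1 lower, and intergenic rows 0 higher and 0 lower. Intergenic rows alone gave 1 higher and 2 lower, of which MMSAT4 had 0 higher and 2 lower, IMPB_01 1 higher and 0 lower and ZP3AR 0 in both directions. An absolute log2 fold change above 1 or 1 row per locus moved no count by over 1.5 times. With no filter on low counts, 41 genes holding MMSAT4 were higher. Same-numbered libraries did not deviate together (correlations -0.05, 0.08 and -0.12), and with the replicate block 6 heterochromatin genes were higher. The cause was not tested. Leaving out 1 library gave 20 to 35 lower MMSAT4 genes, 4 to 8 higher heterochromatin genes and 0 to 6 lower centromere genes. Of 360 refits of 36 single genes, 335 kept sign and side of the threshold, 24 (in 8 genes) lost the call, 1 gained it and 0 changed sign. Trp53 kept its call in each. The small counts per name limit every share by annotation.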

Other observations

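Of the 2810 satellite loci, 153 were read in both directions in the authors' deposited table. None was called in both, and 6 were called in 1 direction. The authors also deposited a list of 2853 higher repeat rows. It holds 23 of the 24 higher satellite rows and leaves out the Platr16 row, whose log2 fold change in the authors' deposited table is 0.80. MMSAT4 was read on its own annotated strand in 91.5% of rows, whereas IMPB_01 was in 47.7% and ZP3AR in 50.3%.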
